A study of Mus musculus with 21 samples.

Results

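The genes described are 10 immune checkpoint ligands and receptors: Cd274, Pdcd1lg2, Cd80, Cd86, Havcr2, Lgals9, Sirpa, Cd47, Pvr and Cd200r1. They were taken by symbol from a table of 23420 genes, and all 10 were found in it. RNA was measured in 21 libraries of inflammatory monocytes (IMs), the Ly6C-high, Ly6G-negative monocytes that leave the bone marrow (BM) and enter inflamed tissue. Tumor inflammatory monocytes (TIMs) came from FVB mice that received 500000 KAL-LN2-E1 (LN2E1) lung squamous carcinoma cells in the lung, either from the primary tumor (n = 5) or from lymph node (LN) metastases (n = 5). TIMs of a further model came from the lungs of DBA2 mice (n = 5) given 300000 LN4K1 cells intravenously, and BM IMs came from naïve FVB mice (n = 3) and naïve DBA2 mice (n = 3). The labels name no altered allele in these mice, the study's methods describe adults of both sexes, and the labels give neither an age nor a day of collection. Each TIM group was set against the BM IMs of its own strain, so tumor and tissue of origin change together in every comparison. The strain, the cell line and the injection route all differ between the LN2E1 and LN4K1 models and cannot be told apart. Nothing in the labels says that the libraries came from separate mice, and the study's methods call them technical replicates, so p-values measure the spread between these samples, which may be technical.

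Total counts per library lay between 80772922 and 101043568. All 8 monocyte markers were above the floor of 3 counts per library in every group, and their summed level was 38705 to 128901 counts scaled to the library's total (CPM). Both extremes lay in TIM libraries, and LN4K1 lung TIM replicate 3 held the highest. That library and LN2E1 node TIM replicate 1 stood apart from the rest: their median Spearman correlations with their own group were 0.9534 and 0.9384, against at least 0.9785 and at least 0.9636 in the other libraries of those groups. Counts of changed genes, and the changes of Sirpa and Cd47 in lung TIMs, are given with and without them. The rises of Pdcd1lg2 and Pvr in node TIMs are given with node replicate 1 only. They passed the test in each of 14 and 15 alternative fits. In bulk RNA, more cells expressing a gene and more RNA per cell cannot be told apart.

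Immune checkpoints are pairs of surface proteins that dampen or tune an immune response. PD-L1 and PD-L2, the products of Cd274 and Pdcd1lg2, bind PD-1 on T cells and restrain them, while CD80 and CD86 give T cells costimulation through CD28 or are held by the inhibitory receptor CTLA-4. TIM-3 (Havcr2) is an inhibitory receptor of T cells and myeloid cells that can bind galectin-9 (Lgals9), CD47 is the "do not eat me" signal read by SIRPα (Sirpa) on phagocytes, PVR (CD155) is read by TIGIT, CD96 and CD226 on lymphocytes, and CD200R1 carries inhibitory signals from CD200 into myeloid cells.

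The 2 PD-1 ligand genes lie side by side on the plus strand of chromosome 19 in the GRCm38 annotation, with Cd274 at chr19:29367455-29388095 and Pdcd1lg2 at chr19:29410919-29471161, separated by 22823 bases. Cd80, Cd86, Cd47 and Cd200r1 share chromosome 16, Havcr2 and Lgals9 share chromosome 11, Sirpa is on chromosome 2 and Pvr is on chromosome 7. Cd274 shares 511 exon bases, 14.1% of its exon length, with an annotated gene on the opposite strand, and reads of the 2 genes cannot be told apart without strand. No exon of the other 9 genes overlaps another annotated gene. For 6 of the 10 genes, the 250 bases upstream of the RefSeq start (GRCm38.p6) could be read. They were searched on both strands for an interferon-stimulated response element (ISRE) core, GAAA then NN then GAAA, a gamma-activated site (TTCNNNGAA), an AP-1 site (TGANTCA) and a kappaB site (GGGANTTCC). These letters occurred in 2.98%, 7.02%, 6.75% and 1.43% of 32851 promoter windows of the same length, in that order. The upstream sequences of these 6 genes are shown so that the PD-1 ligands and Havcr2, with large changes in TIMs, can be set beside Cd80, Lgals9 and Cd47, with smaller ones. They run 5′ to 3′ on the gene's strand, and capitals mark a motif match.
Cd274, chr19:29367188-29367437, plus strand: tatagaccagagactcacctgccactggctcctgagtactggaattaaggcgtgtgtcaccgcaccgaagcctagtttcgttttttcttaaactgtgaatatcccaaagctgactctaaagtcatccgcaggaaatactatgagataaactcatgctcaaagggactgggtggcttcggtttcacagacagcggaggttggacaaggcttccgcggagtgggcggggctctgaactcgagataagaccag
Pdcd1lg2, chr19:29410669-29410918, plus strand: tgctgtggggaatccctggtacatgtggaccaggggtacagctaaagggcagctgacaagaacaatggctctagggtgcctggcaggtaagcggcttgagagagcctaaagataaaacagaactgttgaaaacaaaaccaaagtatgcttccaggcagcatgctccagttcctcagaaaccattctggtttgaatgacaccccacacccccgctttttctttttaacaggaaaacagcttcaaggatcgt
Cd80, chr16:38458683-38458932, plus strand: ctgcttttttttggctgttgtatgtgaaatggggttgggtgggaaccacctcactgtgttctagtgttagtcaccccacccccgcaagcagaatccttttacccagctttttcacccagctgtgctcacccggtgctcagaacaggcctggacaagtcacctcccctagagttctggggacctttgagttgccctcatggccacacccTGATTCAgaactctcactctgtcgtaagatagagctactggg
Havcr2, chr11:46454681-46454930, plus strand: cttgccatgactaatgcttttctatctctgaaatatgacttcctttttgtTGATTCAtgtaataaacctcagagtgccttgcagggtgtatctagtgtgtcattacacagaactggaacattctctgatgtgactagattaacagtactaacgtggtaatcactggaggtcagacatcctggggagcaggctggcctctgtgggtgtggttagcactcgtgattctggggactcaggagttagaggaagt
Lgals9, chr11:78984925-78985174, minus strand: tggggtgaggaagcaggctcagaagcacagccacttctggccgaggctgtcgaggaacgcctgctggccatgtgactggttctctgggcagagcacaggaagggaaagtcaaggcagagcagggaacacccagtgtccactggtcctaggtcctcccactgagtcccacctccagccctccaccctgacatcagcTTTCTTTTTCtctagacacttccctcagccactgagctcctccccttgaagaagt
Cd47, chr16:49855404-49855653, plus strand: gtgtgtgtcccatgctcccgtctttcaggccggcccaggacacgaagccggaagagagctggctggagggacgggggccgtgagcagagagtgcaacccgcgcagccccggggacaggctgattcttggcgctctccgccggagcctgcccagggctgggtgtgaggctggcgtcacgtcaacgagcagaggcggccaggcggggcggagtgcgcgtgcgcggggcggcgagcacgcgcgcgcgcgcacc
Havcr2 held an AP-1 match at -200 to -194 from the start, and Cd80 held one at -42 to -36. Lgals9 held an ISRE core match at -55 to -46, read on the reverse strand. None of the 4 motifs was found in these windows of Cd274, Pdcd1lg2 or Cd47. Cd86, Sirpa, Pvr and Cd200r1 are named only.

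Most checkpoint genes had more RNA in TIMs than their strain's BM IMs had. A gene was called as rising or falling when the p of edgeR's quasi-likelihood test was under 0.05, adjusted by the Benjamini-Hochberg method across every gene tested and written here as edgeR adjusted p. In LN2E1 primary tumor TIMs 9 of 10 rose, where 33.3% of all tested genes rose. In LN2E1 node TIMs all 10 rose, where 20.2% of tested genes did, and in LN4K1 lung TIMs 8 of 10 rose, where 13.9% did. The libraries of TIMs and BM IMs did not overlap for those 9, 10 and 8 genes, as was the case, with TIMs higher, for 30.7%, 20.1% and 19.9% of tested genes. None fell in these 3 comparisons, also at an unadjusted p under 0.05 in edgeR and by DESeq2. The median log2 fold change of the 10 genes was 2.20, 2.29 and 1.88, against 0.08, -0.04 and 0.03 over all genes tested. Setting Pdcd1lg2 at its lower bound leaves these medians as they are, since it stays the highest of the 10. Cd274, Pdcd1lg2, Cd80, Cd86, Havcr2, Pvr and Cd200r1 rose in all 3 TIM groups, as did 7.94% of the 12782 genes tested in all 3; the LN2E1 comparisons share the FVB BM IM libraries. Without LN2E1 node replicate 1 the count in node TIMs was 10, and without LN4K1 lung replicate 3 the count in lung TIMs was 8.

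**Figure D1:**
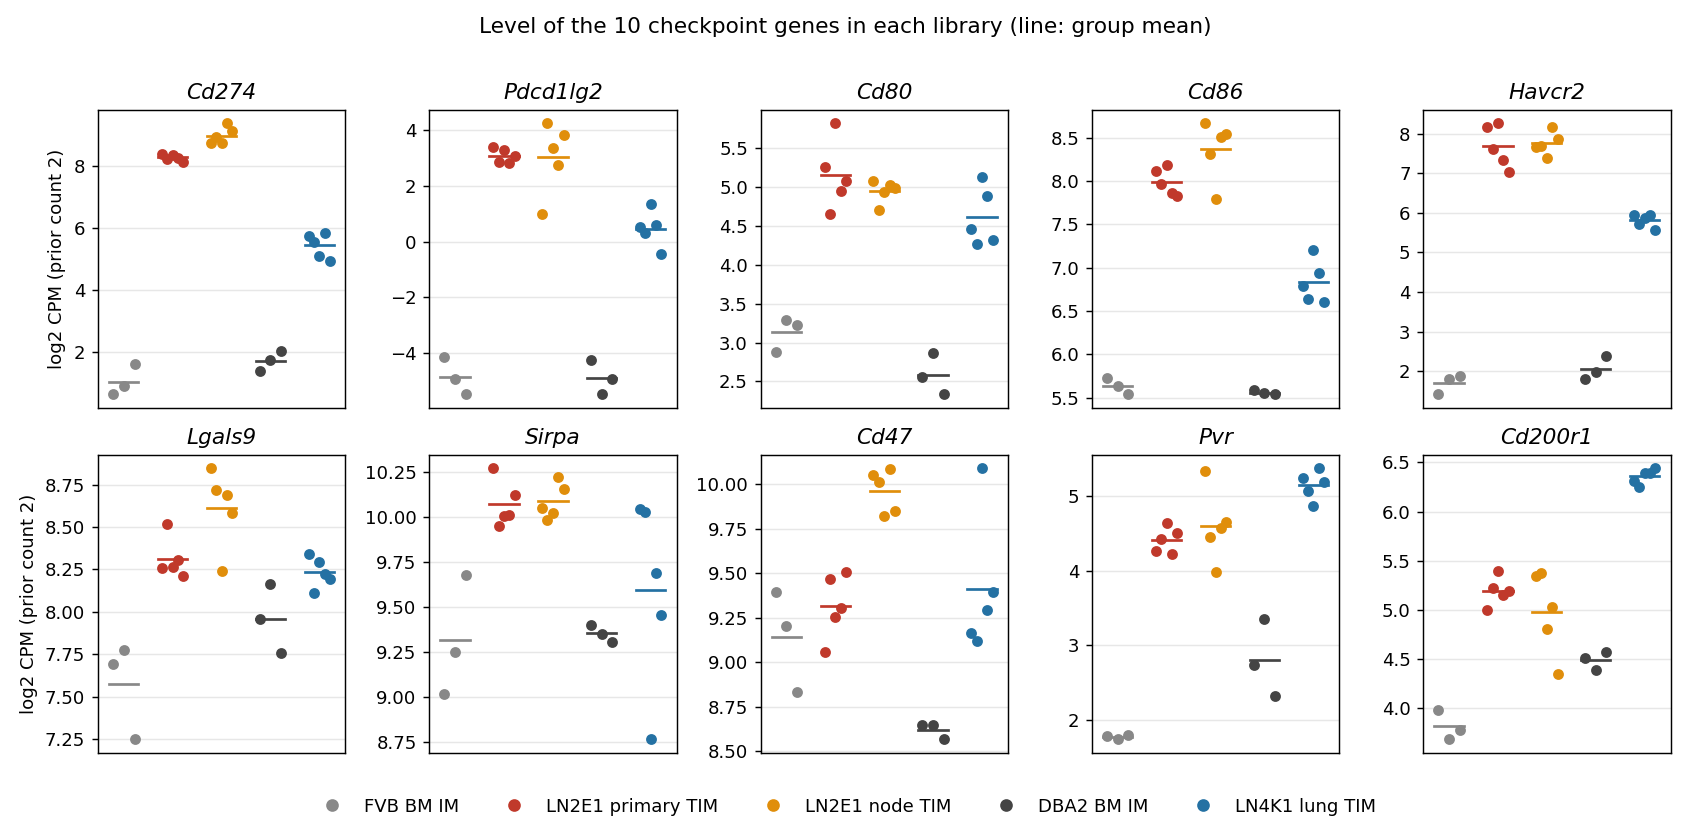
Level of each of the 10 genes in each of the 21 libraries, as log2 CPM with a prior count of 2 (y axis, a scale of its own in each panel), by group along the x axis. Points are libraries and lines are group means; the points of Cd274, Pdcd1lg2, Cd80, Cd86, Havcr2, Pvr and Cd200r1 in each TIM group lie above those of the BM IMs of the same strain.

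At the stricter thresholds that the study's methods used, an adjusted p under 0.0001 and a log2 fold change beyond 1, the count was 6 in primary tumor TIMs, 5 in node TIMs and 3 in lung TIMs. The shares of all tested genes that passed upward were 7.72%, 4.01% and 1.21%. Cd274 and Havcr2 passed in all 3 comparisons, as did 0.931% of genes. With DESeq2, the tool that the study's methods paired with these thresholds, 8 passed in node TIMs and 7 in lung TIMs. With its shrunken fold changes, 1559 of 16745 and 804 of 17400 genes passed upward. Counts of 8 and 7 also came from 1 edgeR fit of all 5 groups, where 1185 and 474 of 15357 genes passed upward. These stricter counts also moved with single libraries, as did those over all genes. In the main fits 532 of 13273 genes passed upward in node TIMs and 165 of 13624 in lung TIMs. In node TIMs 3 passed without any one of the 3 FVB BM IM libraries or of node replicates 2 to 5, and 6 without node replicate 1. Over all genes, 225 to 346 of at least 13061 passed upward without one of the former libraries, and 632 of 13201 without node replicate 1. In lung TIMs 1 passed when any one DBA2 library was left out, and 5 without lung replicate 3. Over all genes, 25 to 37 of at least 14100 passed upward without a DBA2 library, and 373 of 13592 without lung replicate 3.

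Cd274, which encodes PD-L1, had a large change and a clean separation of groups. It stood at 1.52, 1.83 and 3.04 CPM in the FVB BM IM libraries, at 336, 303, 333, 311 and 283 CPM in primary tumor TIMs, and at 436, 495, 428, 668 and 559 CPM in node TIMs. In the DBA2 model it stood at 2.60, 3.32 and 4.04 CPM in BM IMs and at 54.1, 46.8, 34.5, 58.0 and 30.5 CPM in lung TIMs. The 3 TIM groups did not overlap with BM IMs or with each other, and node TIMs held the highest values. The gene rose 143.6-fold in primary tumor TIMs (log2 7.17, SE 0.28, edgeR adjusted p = 1.49e-07) and 241-fold in node TIMs (log2 7.91, SE 0.34, edgeR adjusted p = 3.09e-07). In lung TIMs it rose 12.8-fold (log2 3.68, SE 0.30, edgeR adjusted p = 2.46e-05).

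Pdcd1lg2, which encodes PD-L2, was at 3, 1 and 0 counts in the FVB BM IM libraries and at 3, 0 and 1 counts in the DBA2 BM IM libraries. It stood at 10.4, 7.14, 9.65, 7.06 and 8.30 CPM in primary tumor TIMs, at 1.95, 18.9, 10.2, 6.66 and 14.0 CPM in node TIMs, and at 1.41, 1.21, 2.50, 1.4998 and 0.714 CPM in lung TIMs. All 15 TIM libraries were therefore above all 6 BM IM libraries, and node replicate 1 was far below the other node libraries. Against the floor of 3 counts per library, averaged over the BM IMs of the same strain, the gene was at least 279.4-fold higher in primary tumor TIMs, at least 339.4-fold higher in node TIMs and at least 47.66-fold higher in lung TIMs. The rise passed the test in each (edgeR adjusted p = 1.18e-06, 0.00019 and 0.00148). Even the lowest node library was at least 63.96-fold over the floor. Per length, the level of Pdcd1lg2 stayed below that of Cd274, at 4.34 against 86.4 CPM per kb of exon in primary tumor TIMs, 5.28 against 143 in node TIMs and 0.749 against 12.4 in lung TIMs. The ratio of Cd274 to Pdcd1lg2 counts, with 2 added to each, had a median of 34.36 in primary tumor TIMs, 41.87 in node TIMs and 37.91 in lung TIMs; node replicate 1 stood at 220.7 and lung replicate 3 at 13.66.

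The CD28 and CTLA-4 ligands moved in the same direction but were already expressed in BM IMs. Cd80 stood at 7.32, 9.76 and 9.38 CPM in FVB BM IMs, at 38.4, 25.2, 56.5, 30.8 and 33.8 CPM in primary tumor TIMs, and at 33.9, 26.2, 30.7, 32.8 and 31.9 CPM in node TIMs. DBA2 BM IMs held it at 5.88, 7.24 and 5.02 CPM and lung TIMs at 22.1, 19.3, 35.1, 29.7 and 19.9 CPM. The TIM groups overlapped each other and all lay above the BM IMs. The rise in Cd80 was 4.13-fold, 3.52-fold and 3.95-fold in primary tumor, node and lung TIMs (log2 2.05, 1.82 and 1.98, SE 0.27, 0.19 and 0.26, edgeR adjusted p = 0.000133, 6.66e-05 and 0.000486).

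Cd86 was the more abundant of the pair per length, at 13.5 against 2.38 CPM per kb of exon in FVB BM IMs. It stood at 52.7, 49.8 and 46.4 CPM in FVB BM IMs, at 277, 249.2, 292, 232 and 227 CPM in primary tumor TIMs, and at 406, 318, 222, 364 and 374 CPM in node TIMs. In the DBA2 model it stood at 47.9, 46.9 and 46.5 CPM in BM IMs and at 110.4, 99.4, 148, 123 and 97.03 CPM in lung TIMs. The BM IM libraries of both strains fell in a narrow range, lung TIMs lay above them, and LN2E1 TIMs lay above lung TIMs without overlap. Its rise was 5.08-fold in primary tumor TIMs and 6.79-fold in node TIMs (log2 2.35 and 2.76, SE 0.12 and 0.20, edgeR adjusted p = 4.25e-07 and 6.02e-06), and 2.33-fold in lung TIMs (log2 1.22, SE 0.16, edgeR adjusted p = 0.0005). The median ratio of Cd86 to Cd80 counts went from 5.09 in FVB BM IMs to 7.20 in primary tumor TIMs and 11.72 in node TIMs, and from 8.12 in DBA2 BM IMs to 4.87 in lung TIMs. The log2 ratio of Cd80 to Cd86 was thus 0.91 lower in node TIMs and 0.75 higher in lung TIMs than in the matching BM IMs. In both, all TIM libraries lay on one side of the BM IM libraries, and the 2-sided exact permutation test gave p = 0.0179, the smallest p it can give with 3 and 5 libraries. Adjusted over the 15 ratio tests made, both were p = 0.067 and did not pass by the exact permutation test.

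**Figure D2:**
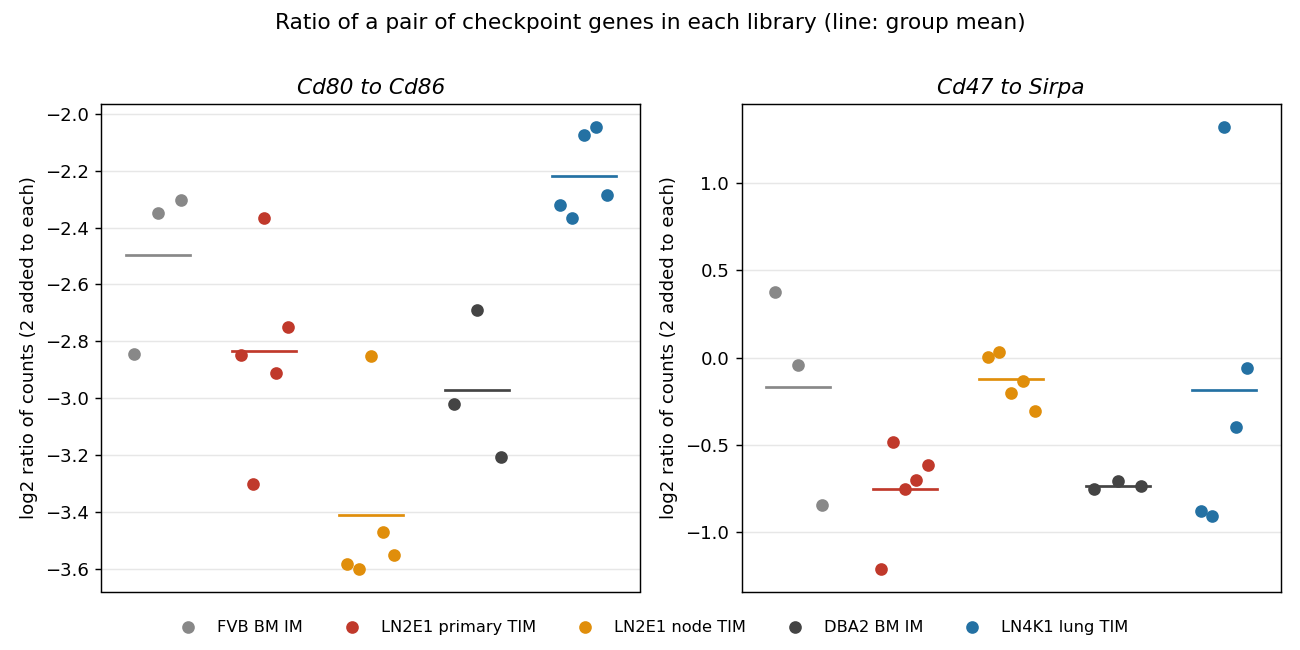
Log2 ratio of counts, with 2 added to each count, of Cd80 to Cd86 (left) and Cd47 to Sirpa (right) in each library (y axis), by group along the x axis. Points are libraries and lines are group means; Cd80 to Cd86 runs from -3.60 to -2.85 in node TIMs and from -2.37 to -2.05 in lung TIMs, and 1 lung TIM library stands at 1.32 for Cd47 to Sirpa.

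Havcr2, the TIM-3 gene, was scarce in BM IMs and far higher in TIMs. It stood at 2.64, 3.44 and 3.62 CPM in FVB BM IMs, at 287, 194, 306, 161 and 129 CPM in primary tumor TIMs, and at 201, 207, 167, 286 and 235 CPM in node TIMs. In the DBA2 model it stood at 3.47, 3.92 and 5.16 CPM in BM IMs and at 61.5, 52.7, 58.3, 61.3 and 47.2 CPM in lung TIMs. LN2E1 TIMs were highest, lung TIMs were in between, and BM IMs were lowest, with no overlap between these 3 levels. The rise was 65.58-fold in primary tumor TIMs and 67.59-fold in node TIMs (log2 6.04 and 6.08, SE 0.38 and 0.25, edgeR adjusted p = 1.6e-06 and 2.97e-07), and 12.74-fold in lung TIMs (log2 3.67, SE 0.20, edgeR adjusted p = 2.55e-06).

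Lgals9, which encodes the TIM-3 ligand galectin-9, was abundant in BM IMs and changed little by comparison. It stood at 207, 219 and 152 CPM in FVB BM IMs, at 306, 367, 308, 316 and 296 CPM in primary tumor TIMs, and at 460.3, 421, 302, 413 and 383 CPM in node TIMs. DBA2 BM IMs held it at 248, 287 and 217 CPM and lung TIMs at 324, 276, 314, 299 and 292 CPM. The LN2E1 TIMs lay above the FVB BM IMs, while lung TIMs overlapped the DBA2 BM IMs. Lgals9 rose 1.63-fold in primary tumor TIMs and 2.06-fold in node TIMs (log2 0.71 and 1.04, SE 0.13 and 0.17, edgeR adjusted p = 0.000904 and 0.00094). In lung TIMs the log2 difference was 0.19 (SE 0.12), which did not pass (edgeR adjusted p = 0.292).

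Sirpa, the receptor with which phagocytes read CD47, had the highest mean per length of the 10 genes in every group. Per length, libraries of Sirpa overlapped those of the next gene in every group but primary tumor TIMs. It stood at 517, 608 and 819 CPM in FVB BM IMs, at 1234, 988, 1029, 1029 and 1114 CPM in primary tumor TIMs, and at 1060.2, 1011, 1039, 1193 and 1139 CPM in node TIMs. In the DBA2 model it stood at 676, 654 and 633 CPM in BM IMs and at 1054.5, 1043, 435, 824 and 701 CPM in lung TIMs. The LN2E1 TIM libraries lay above the FVB BM IMs, whereas in lung TIMs replicate 3 lay below, and the other 4 above, all DBA2 BM IMs. Sirpa rose 1.64-fold in primary tumor TIMs and 1.68-fold in node TIMs (log2 0.71 and 0.75, SE 0.15 and 0.16, edgeR adjusted p = 0.00295 and 0.00429). In lung TIMs the log2 difference was 0.24 (SE 0.26, edgeR adjusted p = 0.567), and without lung replicate 3 it was 0.40 (edgeR adjusted p = 0.064); neither passed.

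Cd47, the SIRPα ligand, stood at 672, 590.4 and 456 CPM in FVB BM IMs, at 533, 709, 609.7, 633 and 728 CPM in primary tumor TIMs, and at 1062, 1032, 903, 1087 and 922 CPM in node TIMs. DBA2 BM IMs held it at 401, 401 and 379.6 CPM and lung TIMs at 573, 557, 1088, 626 and 673 CPM. Primary tumor TIMs overlapped the FVB BM IMs, node TIMs lay above both, and lung TIMs lay above the DBA2 BM IMs. Cd47 was the gene of the 10 that did not pass in primary tumor TIMs (log2 0.15, SE 0.14, edgeR adjusted p = 0.378). It rose 1.75-fold in node TIMs (log2 0.81, SE 0.14, edgeR adjusted p = 0.00142) and 1.69-fold in lung TIMs (log2 0.76, SE 0.22, edgeR adjusted p = 0.0323). Without lung replicate 3, the highest library, the rise in lung TIMs was log2 0.55 (edgeR adjusted p = 0.000753). The call was lost without any one of the 3 DBA2 BM IM libraries (edgeR adjusted p = 0.0941, 0.1 and 0.113) or without lung replicate 5 (edgeR adjusted p = 0.0552). The log2 ratio of Cd47 to Sirpa averaged -0.12 in node TIMs and -0.75 in primary tumor TIMs. All 5 node libraries were above all 5 primary tumor libraries, and the exact permutation test gave p = 0.00794, the smallest p possible with 5 and 5 libraries, or 0.067 adjusted over the 15 ratio tests.

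Pvr was scarce in BM IMs. It stood at 3.42, 3.31 and 3.45 CPM in FVB BM IMs, at 19.3, 21.5, 24.9, 18.7 and 22.8 CPM in primary tumor TIMs, and at 40.6, 21.98, 15.8, 23.9 and 25.1 CPM in node TIMs. In the DBA2 model it stood at 6.60, 10.2 and 4.95 CPM in BM IMs and at 38.1, 33.6, 29.3, 41.5 and 36.6 CPM in lung TIMs. Every TIM library lay above every BM IM library, with node replicate 1 the highest of its group. Pvr rose 6.23-fold in primary tumor TIMs, 7.51-fold in node TIMs and 4.68-fold in lung TIMs (log2 2.64, 2.91 and 2.23, SE 0.15, 0.33 and 0.25, edgeR adjusted p = 9.19e-07, 9.58e-05 and 0.000191).

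Cd200r1 was, with Pvr, 1 of 2 genes of the list with the highest mean in LN4K1 lung TIMs. It stood at 15.9, 12.8 and 13.7 CPM in FVB BM IMs, at 31.9, 37.4, 42.0, 35.4 and 36.6 CPM in primary tumor TIMs, and at 40.6, 41.5, 28.0, 32.6 and 20.4 CPM in node TIMs. DBA2 BM IMs held it at 22.7, 21.02 and 23.9 CPM and lung TIMs at 79.5, 76.3, 84.1, 83.7 and 86.8 CPM. Lung TIMs lay above all other libraries, and the LN2E1 TIM groups overlapped each other but not the FVB BM IMs. The gene rose 2.56-fold, 2.31-fold and 3.45-fold in primary tumor, node and lung TIMs (log2 1.36, 1.21 and 1.79, SE 0.13, 0.26 and 0.11, edgeR adjusted p = 1.82e-05, 0.00457 and 5.33e-06).

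**Figure D3:**
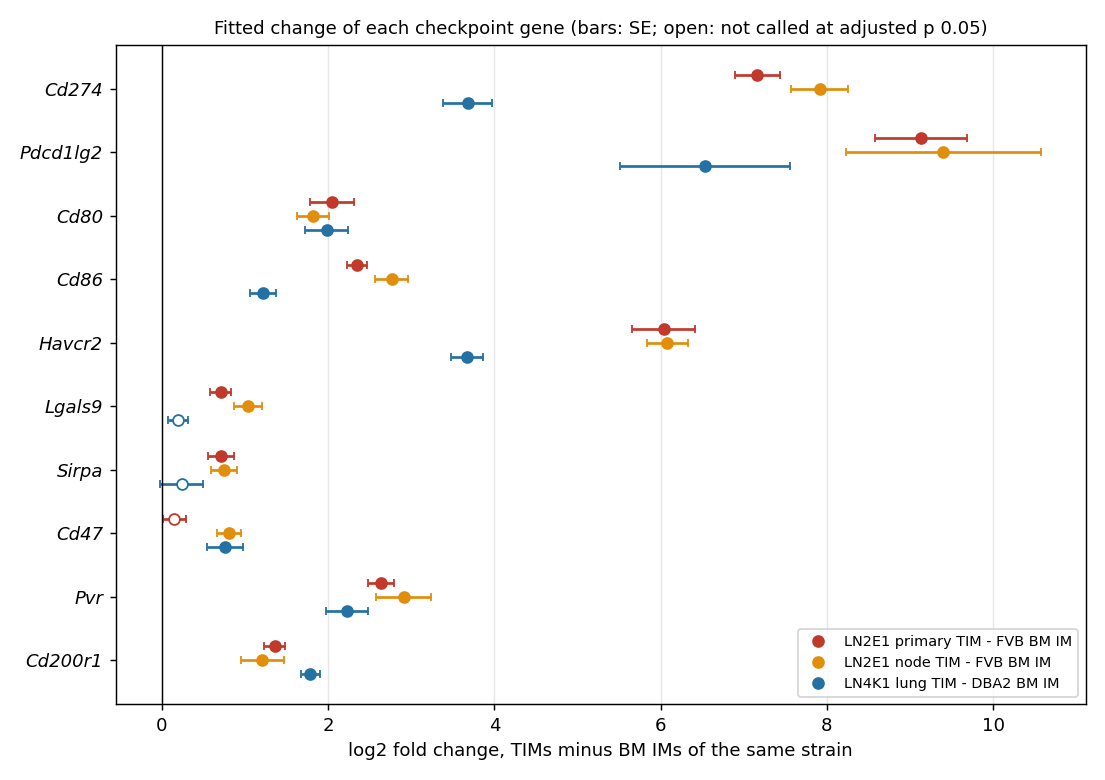
Fitted log2 fold change of each gene (x axis) between TIMs and the BM IMs of the same strain, with SE bars, in 3 colors for the 3 comparisons. Filled points passed an edgeR adjusted p of 0.05, and open points did not: Lgals9 and Sirpa in lung TIMs and Cd47 in primary tumor TIMs; the points of Pdcd1lg2 are fitted values against BM IMs at or under 3 counts and are not lower bounds.

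Divided by exon length, the levels of the 10 genes fell into an upper tier and a lower tier. In CPM per kb of exon, FVB BM IMs held Sirpa at 132, Cd47 at 91.3 and Lgals9 at 90.2, followed by Cd86 at 13.5 and the other 6 genes at 4.22 or less. Cd274 was the gene that moved furthest up this order. It ranked 8 of 10 in FVB BM IMs, at 0.588, and 4 of 10 in both LN2E1 TIM groups, at 86.4 in primary tumor TIMs and 143 in node TIMs. In LN4K1 lung TIMs it ranked 7, at 12.4, behind Cd86 at 31.5, Cd200r1 at 24.5 and Havcr2 at 20.7. Within primary tumor TIMs the libraries of Cd47, Cd274, Havcr2 and Cd86, at means of 102, 86.4, 79.2 and 69.8, overlapped from each to the next. Pvr and Pdcd1lg2 took the lowest ranks in LN2E1 TIMs, at 3.50 and 4.34 in primary tumor TIMs, and their libraries overlapped.

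**Figure D4:**
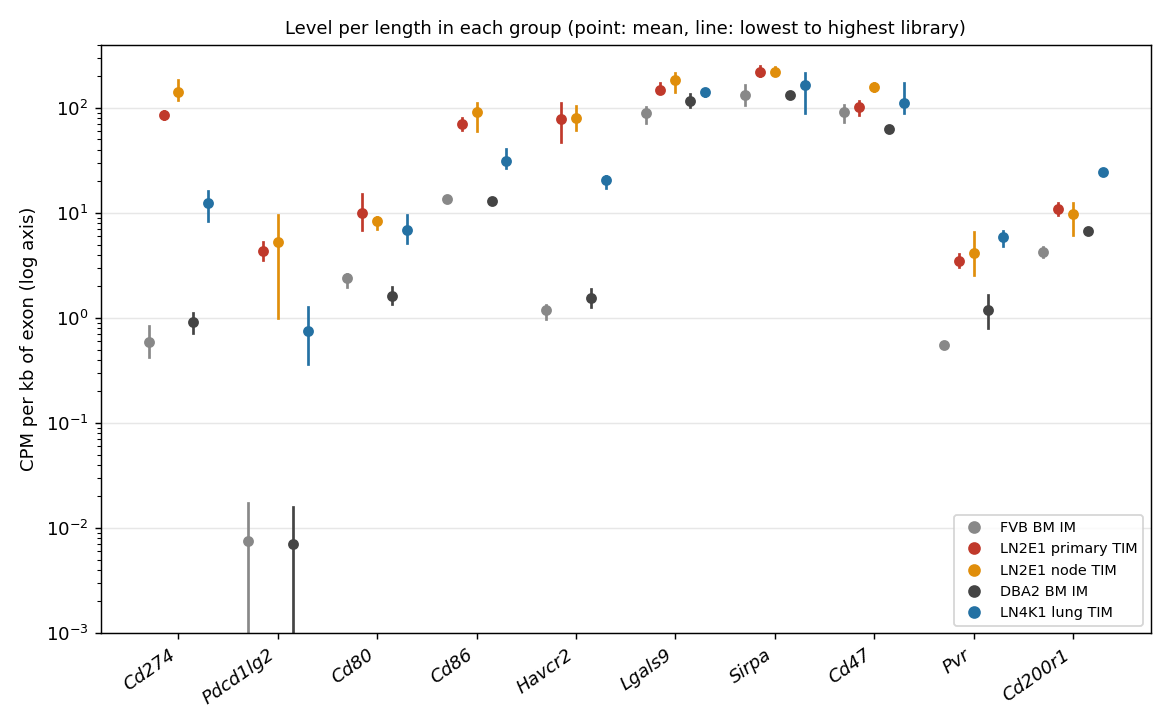
Level of each gene divided by its exon length, in CPM per kb on a log axis (y axis), for the 5 groups (colors). Points are group means and lines run from the lowest to the highest library; lines of Pdcd1lg2 in BM IMs reach 0, which the axis cannot show, and Cd274 goes from 0.588 in FVB BM IMs to 143 in node TIMs.

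Between the LN2E1 sites, node TIMs differed from primary tumor TIMs in 2 of the 10 genes, where 11.7% of all tested genes changed. Cd274 was 1.66-fold higher in node TIMs (log2 0.73, SE 0.12, edgeR adjusted p = 0.00408) and Cd47 was 1.57-fold higher (log2 0.65, SE 0.10, edgeR adjusted p = 0.00291), and for each all 5 node libraries lay above all 5 primary tumor libraries, as was the case for 5.61% of tested genes. The next largest positive differences, Cd86 at log2 0.41 and Lgals9 at log2 0.32, did not pass (edgeR adjusted p = 0.107 and 0.0916), but passed without node replicate 3 (edgeR adjusted p = 0.00951 and 0.0149), so that the count was then 4. Havcr2 and Sirpa differed by log2 0.03 and 0.02 (SE 0.23 and 0.08), and the sign of both turned under other settings. Without node replicate 1 the count was 2.

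The strains were compared in BM IMs of naïve mice, with 9 of the 10 genes passing the filter on low counts. Pvr was 2.17-fold higher in DBA2 (log2 1.12, SE 0.29, edgeR adjusted p = 0.0293) and Cd200r1 was 1.62-fold higher (log2 0.70, SE 0.15, edgeR adjusted p = 0.0152). Cd47 was lower in DBA2 by log2 -0.51 (SE 0.13, edgeR adjusted p = 0.0268). These 3 of 9 stand beside 21.1% of all tested genes, and the calls are fragile: leaving out 1 library at a time gave 0 to 4, with 0 without FVB replicate 2 and 1 without FVB replicate 1 or without any one of the DBA2 libraries. Reads of both strains were aligned to the C57BL/6 genome.

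Whether the change in LN2E1 primary tumor TIMs differed from that in LN4K1 lung TIMs was tested in 1 fit of the 4 groups. The difference passed for 5 of 10 genes, where 26.5% of all tested genes passed. Relative to BM IMs of the same strain, the rise was larger in LN2E1 primary tumor TIMs by log2 3.50 for Cd274 (SE 0.35, edgeR adjusted p = 2.86e-05), by 2.38 for Havcr2 (SE 0.35, edgeR adjusted p = 0.000449) and by 1.15 for Cd86 (SE 0.18, edgeR adjusted p = 0.000767). These calls held without any 1 library. The difference was 0.54 for Lgals9 (SE 0.17, edgeR adjusted p = 0.0304) and -0.41 for Cd200r1 (SE 0.15, edgeR adjusted p = 0.0498). Both of the latter calls were lost in several fits that left out 1 library, with counts of 3 without FVB replicate 1 or 3, DBA2 replicate 1 or 2, or primary tumor replicate 2. For Cd80 the difference was 0.08 (SE 0.36), and for Pvr 0.43 (SE 0.27); neither passed (edgeR adjusted p = 0.919 and 0.262).

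Markers of other cell types were present beside the monocyte markers, and many of their sums moved with the TIM groups. Some sums rested on 1 or a few genes, so counts of called markers stand beside several of them. Over all tested genes, 33.3%, 20.2% and 13.9% rose in primary tumor, node and lung TIMs. The falling genes were 28.6%, 17.2% and, in lung TIMs, 1497 of 13624. The 7 macrophage markers summed to 1234 to 1387 CPM in FVB BM IMs and lay between 2177 and 3613 CPM over the LN2E1 TIMs. They summed to 754 to 1904 CPM in DBA2 BM IMs and 3663 to 5305 CPM in lung TIMs. The sums of TIMs lay above those of BM IMs of their strain without overlap, but Apoe made up most of them. Its means were 1159 CPM in FVB BM IMs, 2410 CPM in node TIMs, 1094 CPM in DBA2 BM IMs and 4510 CPM in lung TIMs. Of the 7 macrophage markers, 2 rose in primary tumor TIMs and 1 rose in node TIMs. In lung TIMs 1 rose and 1, C1qc, fell. The summed level of 9 dendritic cell markers was 78.6 to 89.4 CPM in FVB BM IMs, and in LN2E1 TIMs 170 to 339 CPM (primary tumor) and 88.5 to 616 CPM (node). It was 93.4 to 109 CPM in DBA2 BM IMs and 130 to 353 CPM in lung TIMs. Of the 9 dendritic cell markers, 7 rose in primary tumor TIMs, 5 rose in node TIMs, and 3 rose and 1 fell in lung TIMs. Siglech averaged 0.73 CPM in FVB BM IMs and 243.7 CPM in node TIMs. Cd209a, at means of 73.9 and 43.8 CPM in these 2 groups, was not called. The 5 fibroblast markers summed to at most 0.193 CPM in FVB BM IMs; TIMs of the primary tumor held 361 to 1101 CPM, with 0.836 to 87.1 CPM in node TIMs and 1.31 to 42.9 CPM in lung TIMs. The 5 lung epithelial markers summed to 130 to 859 CPM in primary tumor TIMs, at most 0.981 CPM in node TIMs and 6.48 CPM or more in lung TIMs. The 9 T cell markers ran from 2.57 to 4.30 CPM in FVB BM IMs and from 12.3 to 68.8 CPM in LN2E1 TIMs, with Cd3e and Cd8a at or under the floor in FVB BM IMs. Of these markers, 5 of 9 rose in primary tumor TIMs, 3 of 8 tested in node TIMs and 5 of 8 tested in lung TIMs. In node TIMs the 3 were Cd2, Cd4 and Cd8a, at means of 6.83, 16.9 and 12.35 CPM. Cd3e and Cd3d, at means of 0.092 and 0.648 CPM in node TIMs, were not called there. The 9 squamous epithelial markers summed to 3.04 to 3.27 CPM in FVB BM IMs; TIMs of the primary tumor held 50.8 to 81.5 CPM and node TIMs 11.8 to 141 CPM, where Krt14, Trp63, Krt6a and Dsp were at or under the floor. The 5 endothelial markers summed to 4.85 to 7.27 CPM in FVB BM IMs and lay between 51.5 and 110 CPM over the LN2E1 TIMs. DBA2 BM IMs held 9.48 to 13.6 CPM, and lung TIMs 5.69 to 15.8 CPM. Pecam1 alone made up most of the LN2E1 sums, with means of 49.0 (primary tumor) and 75.4 CPM (node), against 4.75 CPM in FVB BM IMs. Kdr, which was not called in node TIMs, averaged 4.79 CPM there, and Cdh5 2.34 CPM. Rising endothelial markers numbered 3 of 5 tested (primary tumor), 2 of 3 (node) and 2 of 5 (lung). Neutrophil markers summed to 2743 to 3250 CPM in FVB BM IMs and 573 to 1471 CPM over the LN2E1 TIMs. In the DBA2 model they summed to 1069 to 1507 CPM in BM IMs and 1246 to 1727 CPM in lung TIMs. They went both ways: 4 of 8 tested rose and 3 fell in primary tumor TIMs. In node TIMs 2 of 7 rose and 4 fell, and in lung TIMs 1 of 7 rose and 4 fell. In node TIMs Camp, Ltf, Ngp and Retnlg fell, while Csf3r and Cxcr2 rose. Eosinophil markers were lower in LN2E1 TIMs, with 507 to 1081 CPM in FVB BM IMs and 3.13 to 6.99 CPM in primary tumor TIMs. Their part in the rise of the checkpoint genes was not tested. Of the sort markers, 6 of 7 were in the table, and each passed the floor in at least 1 library of every group. The missing gene was Ly6g, which the sort excluded. The 6 include Siglec5, the symbol here for Siglecf, which the sort also excluded, at group means of 0.27 to 6.4 CPM. The Ly6C genes fell in all 3 TIM groups. Ly6c2 fell by log2 1.30, 1.17 and 0.88 in primary tumor, node and lung TIMs (edgeR adjusted p = 1.68e-05, 0.00116 and 0.000903). Ly6c1 fell by log2 0.97, 1.09 and 0.86 (edgeR adjusted p = 0.000437, 0.00562 and 0.000507).

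Partner genes on other cells and genes of related families were counted from lists. Over all tested genes, 33.3%, 20.2% and 13.9% rose in primary tumor, node and lung TIMs, and the counts of each list stand against these shares. The falling genes were 28.6%, 17.2% and, in lung TIMs, 1497 of 13624. Of the 12 partner genes, 7 rose and 1 fell in primary tumor TIMs, 5 of 10 tested rose and 1 fell in node TIMs, and 5 rose and 1 fell in lung TIMs. Several of these rises were at low levels. In primary tumor TIMs Pdcd1, Ctla4, Cd200 and Tigit rose to means of 1.42, 0.542, 2.35 and 0.666 CPM, from 0.022 CPM or less in FVB BM IMs. In node TIMs Ctla4 and Cd200 rose to 1.07 and 2.61 CPM. In lung TIMs Ctla4, Cd200 and Tigit rose to 0.206, 1.58 and 0.372 CPM. Thbs1, a CD47 ligand, averaged 4960 ± 759 CPM (SD, n = 5) in primary tumor TIMs against 510.4 ± 346 CPM (SD, n = 3) in the FVB BM, and rose by log2 3.25 (edgeR adjusted p = 0.000191). In node TIMs it rose by log2 2.45 (edgeR adjusted p = 0.00152), and in lung TIMs the log2 difference was -0.48 (edgeR adjusted p = 0.388). Hmgb1, another TIM-3 ligand, fell by log2 1.54 in primary tumor TIMs (edgeR adjusted p = 9.12e-07), and it also fell in node and lung TIMs. Of 23 other B7 family and myeloid checkpoint genes, 13 of 22 tested rose and 6 fell in primary tumor TIMs, 11 of 20 rose and 3 fell in node TIMs, and 9 of 19 rose and 1 fell in lung TIMs. Fgl2 and Lilrb4 rose in all 3 groups, Fgl2 by log2 3.99, 4.56 and 2.46 (edgeR adjusted p = 8.36e-08, 1.96e-06 and 4.05e-05), and Lilrb4, which encodes an inhibitory receptor of myeloid cells, by log2 1.44, 1.28 and 1.31 (edgeR adjusted p = 2.26e-05, 0.000187 and 0.000241). The gene for VISTA, listed as 4632428N05Rik, fell by log2 0.26 and 0.585 in LN2E1 primary tumor and node TIMs (edgeR adjusted p = 0.0321 and 0.00171).

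Close relatives of Sirpa and Cd200r1 can share reads with them, and so their counts are uncertain where sequence is near-identical. Sirpb1b, an activating relative of Sirpa, had a mean of 526 CPM in lung TIMs, 118 CPM in DBA2 BM IMs, 97.8 CPM in TIMs of the primary tumor and 37.3 CPM in FVB BM IMs. Sirpb1a and Sirpb1b rose in all 3 TIM groups, by log2 1.37 to 2.08. Of Cd200r2, Cd200r3 and Cd200r4, Cd200r4 rose in lung TIMs (log2 1.29, edgeR adjusted p = 0.00299), at a mean of 7.26 CPM. The other relatives of Cd200r1 had means under those of Cd200r1 in every group.

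Genes that carry checkpoint signals inside the cell moved in part. In primary tumor and node TIMs 9 of 15 rose and 1 fell, and in lung TIMs 5 of 15 rose, where 33.3%, 20.2% and 13.9% of all tested genes rose. The kinase gene Lyn rose in all 3 TIM groups, by log2 1.12, 1.10 and 0.91 (edgeR adjusted p = 3.27e-06, 0.000106 and 0.000189). Ptpn6, which encodes SHP-1, the phosphatase recruited by SIRPα, differed by log2 0.04, -0.09 and -0.09 and did not pass (edgeR adjusted p = 0.724, 0.575 and 0.796). Cmtm6, which encodes a protein that stabilizes PD-L1 at the cell surface, rose by log2 0.86 and 0.87 in primary tumor and node TIMs (edgeR adjusted p = 0.000127 and 0.00496), and in lung TIMs the log2 difference was 0.23 (edgeR adjusted p = 0.57).

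Genes of the interferon, JAK-STAT and NF-kappaB pathways, which include known inputs to PD-L1 transcription, were mostly higher in LN2E1 TIMs. The list also holds regulators and targets of these pathways, among them Socs1 and Ciita. Of its 20 genes 19 rose in primary tumor TIMs, 17 rose in node TIMs, and 9 rose and 1 fell in lung TIMs, where 33.3%, 20.2% and 13.9% of all tested genes rose. Their median log2 fold change was 1.29, 1.36 and 0.48, against 0.08, -0.04 and 0.03 over all genes tested. Irf1, an interferon-induced transcription factor, stood at 129 ± 40.4 CPM (SD, n = 3) in FVB BM IMs, 955 ± 99.0 CPM (SD, n = 5) in primary tumor TIMs and 1558 ± 98.3 CPM (SD, n = 5) in node TIMs, and at 125 ± 24.6 CPM (SD, n = 3) in DBA2 BM IMs and 479 ± 47.1 CPM (SD, n = 5) in lung TIMs. It rose by log2 2.87, 3.60 and 1.86 (edgeR adjusted p = 2.59e-06, 1.57e-06 and 3.76e-05). For 13 of the 20 the change was larger in LN2E1 primary tumor TIMs than in LN4K1 lung TIMs, by log2 1.03 for Irf1 (edgeR adjusted p = 0.00616), while 26.5% of all tested genes passed in either direction. Between the LN2E1 sites 5 of the 20 were higher in node TIMs, among them Irf1 by log2 0.72 (edgeR adjusted p = 0.00073), where 11.7% of all tested genes changed. In BM IMs of naïve mice 8 of the 20 were higher and 1 was lower in DBA2, where 21.1% of all tested genes changed.

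The genes nearest to each checkpoint gene over the 5 group means of log2 CPM were listed by the mean absolute difference after centring, among 8015 genes or, for Pdcd1lg2, 8016. For Cd274 these were Ccr9, Ly6a and Rhov, at 0.296, 0.419 and 0.435, and for Pdcd1lg2 Rhov, at 0.10, with Upp1 and Gbp4 next. The BM IM means of Pdcd1lg2 came from 0 to 3 counts per library, so its distances depend on the prior count of 2. Cd80 was nearest to Avpi1 and Jund, and Cd86 to Etv3, Il2rg and Gpr137b, each between 0.11 and 0.13. Havcr2 was nearest to Traf1, Il1rn and C3ar1, at 0.216 to 0.235. Pvr was nearest to Flt1, Lifr and P2ry12, and Cd200r1 to Tmem176b, Junb and Slfn1. Lgals9, Sirpa and Cd47, whose group means differed least, had neighbours within 0.06.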

How the data were processed

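IMs were sorted by the authors as CD45+ CD11b+ Ly6C-high Ly6G- SiglecF- cells, and RNA was amplified with a low-input kit that does not keep strand. Reads were trimmed with BBDuk, aligned to mm10 with BBMap and counted per gene by the authors with featureCounts 1.5.2; SAMtools 1.8 is named in the submitters' processing notes. The deposited values are raw read counts for 23420 gene symbols in 21 libraries. Every count was used as deposited, and 3910 genes were 0 in every library.

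From these counts, genes were filtered with filterByExpr (minimum count 10, minimum total 15), scaled with TMM factors and tested with the robust quasi-likelihood test of edgeR 4.0.16 in R 4.3.3, for each comparison on its own groups, with Benjamini-Hochberg adjustment over all genes tested. CPM used TMM-scaled library sizes. The floor of 3 counts was worth 0.0268 to 0.0405 CPM per library, and only Pdcd1lg2 in BM IMs lay at or under it. Ratios of counts were compared by 2-sided exact permutation tests. Exon lengths and positions came from the GENCODE annotation of GRCm38, and upstream sequences from RefSeq (GRCm38.p6).

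The 10 genes and the gene lists were chosen with earlier results of these data known. All 10 were named; from other lists, at most 5 genes of highest mean CPM were given values, and the 3 genes nearest in profile to each of the 10, out of those whose log2 CPM averaged above 3, were listed. Some genes that these rules select are not reported here. Replicate numbers were tested for pairing by the correlation of same-numbered libraries' deviations from their group means; in no comparison did every pair exceed 0.1, and no block was used in the reported tests. Alternatives were DESeq2 1.42.0, DESeq2's size factors, other filters, 1 fit of all 5 groups, a replicate block and leaving out each library. Scripts were tested on simulated counts. Trimming, alignment and the study's heat maps were not repeated.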

Additional observations from a re-analysis of the deposited data

Results flagged for a closer look

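Lgals9 stood at 366.7 CPM in primary tumor TIM replicate 2, against 296.3 to 316.2 CPM in the other 4 libraries, a gap beyond Dixon's 95% critical value for 5 samples. Cd47 stood at 1088 CPM in LN4K1 lung TIM replicate 3, against 556.8 to 672.5 CPM in the other 4, also beyond that value. These were 2 of 30 groups of 5 libraries tested, and chance alone gives about 1 in 20.

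The change against BM IMs of the same strain differed between LN2E1 primary tumor TIMs and LN4K1 lung TIMs for 5 genes by the difference term in edgeR. The difference was log2 3.503 for Cd274, 2.381 for Havcr2, 1.147 for Cd86, 0.5371 for Lgals9 and -0.4112 for Cd200r1. Strain, cell line and injection route differ together between these models.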

How the results depend on the processing

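Under every scaling, filter and DESeq2 setting, the number of the 10 genes that changed stayed within 1.5 times of the main count. The exception was the difference between models, at 3 with all 5 groups in 1 fit. Single calls were also lost. For the difference between models these were Lgals9 with no filter and Cd200r1 with DESeq2's size factors (edgeR adjusted p = 0.0761 and 0.0773). Between strains, Cd47 was lost with all 5 groups in 1 fit (edgeR adjusted p = 0.0933). Without 1 library at a time, the counts were 9 in primary tumor TIMs, 10 in node TIMs, 7 to 8 in lung TIMs, 2 to 4 between LN2E1 sites, 0 to 4 between strains and 3 to 5 for the difference between models. At the study's thresholds the counts ran from 5 to 7, 3 to 6, 1 to 5 and 0 to 2 in primary tumor, node and lung TIMs and for the difference between models. With all 5 groups in 1 fit they were 8 in node and 7 in lung TIMs, with DESeq2, shrunken or not, also 8 and 7, and 3 for the difference between models with DESeq2 unshrunken. A replicate block gave 0 in each of these 4, and of all genes 0 passed in each of the 3 TIM comparisons. The labels do not say whether same-numbered libraries share a mouse, and same-numbered libraries' deviations correlated at -0.236 to 0.228. The block also lost Cd47 in lung TIMs, Pvr between strains and Cd200r1 for the difference between models (edgeR adjusted p = 0.149, 0.0514 and 0.089), and gained Lgals9 between strains (edgeR adjusted p = 0.0307). The cause of these shifts was not tested.

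Signs turned for values that did not pass a test. Between LN2E1 sites, Havcr2 was at log2 -0.01436 with 10 counts required in every library, and Sirpa at -0.0257 with that filter, -0.00432 with DESeq2's size factors and -0.004204 or -0.004135 with DESeq2. Without 1 library at a time, Pdcd1lg2 ran from -0.04113 to 0.5581, Havcr2 from -0.1132 to 0.1954 and Sirpa from -0.01487 to 0.06348 between sites, Sirpa from -0.1127 to 0.2583 between strains and Cd80 from -0.1268 to 0.2259 for the difference between models. In node TIMs against BM IMs, the log2 ratio of Cd274 to Pdcd1lg2 ran from -0.7028 to 0.6234 and that of Cd47 to Sirpa from -0.2902 to 0.3214. Pdcd1lg2 could not be fitted against BM IMs with 10 counts required in every library, and shrunken DESeq2 values of the difference between models were not run. The calls on Cd47 in lung TIMs, on strain and on Lgals9 and Cd200r1 between models rest on few libraries, and only Pdcd1lg2 in BM IMs was limited by depth.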
